A study of Mus musculus with 28 samples.

Results

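This report describes 10 genes of skeletal muscle regeneration in mouse skin wounds: the satellite cell factor Pax7, the myogenic regulatory factors Myf5, Myod1, Myog and Myf6, the fusion protein gene Mymk, the developmental myosin heavy chains Myh3 and Myh8, and the acetylcholine receptor subunits Chrng and Chrna1. The genes were chosen by their names and by their counts over the same 28 libraries, so their values are given as a description, with no p-value. They are 10 of the 29068 genes of the count table, and all 10 were among the 18107 genes that passed the filter on low counts. Transcriptomes of C57BL/6J mice (MLKL+/+, 8 weeks old, both sexes) were sequenced in 7 groups of 4 libraries, labelled Day0, Day3, Day5, Day7, Day10, Day12 and Day14. The Day0 group serves as the control in the design text, all 28 libraries carry the treatment label Natural wound healing, and the wounds were a full-thickness excision of 6 mm on the back that reached the fascia. Whole wound sites were taken, scab and margins included. The study counts the day of injury as day 1, and its design text describes Day0 as tissue at 0 days after injury, without saying whether it was taken before or after the punch. The design text speaks of 5 repeats a day, of which 4 were analysed here. The labels do not say whether each library came from a separate animal, so p-values measure the spread between these libraries, which may be technical.

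Skeletal muscle regenerates from satellite cells, which carry Pax7 and lie beside the fibre. Once activated, they express Myf5 and Myod1 as myoblasts, then Myog as they leave the cell cycle, fuse with the help of the membrane protein Mymk, and build new fibres that first use the embryonic myosin Myh3 and the perinatal myosin Myh8. New or denervated fibres carry a receptor with the fetal gamma subunit (Chrng), which the epsilon subunit (Chrne) replaces at mature junctions, while the alpha subunit (Chrna1) is part of both. In mouse back skin a thin sheet of skeletal muscle, the panniculus carnosus, lies under the dermis, so bulk wound RNA can hold muscle RNA.

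Total counts ran from 36706513 to 40655764 per library. The biological coefficient of variation was 26.4% in Day0 and between 5.70% and 10.8% in the wound groups. In Day0, replicates 2 and 3 were close to each other and apart from replicates 1 and 4. The sum of 6 skeletal muscle markers (Acta1, Ckm, Tnnt3, Mylpf, Ryr1 and Cacna1s) ran from 12500 to 20200 CPM (counts scaled to library size). Their mean log2 CPM was 10.963, 10.276, 10.277 and 11.104 in replicates 1 to 4. The sum of 6 fibroblast markers was 23300 CPM in replicate 1, 51700 in replicate 2, 49700 in replicate 3 and 13200 in replicate 4. SEs and p-values against Day0 count all 4 libraries as separate. All 6 muscle markers were detected in every library. Of 6 heart markers, Nppa and Nkx2-5 were at 0 in 27 of 28 libraries, Myh6 reached at most 6 counts and was at 0 in 9, Myl7 reached 14 and was at 0 in 3, and Tnni3 and Ryr2, which reached 53 and 42, were detected in every library. In bulk RNA, fewer cells of a type and less RNA per cell cannot be told apart.

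The genes lie on 6 chromosomes of mm10. Myf5 (chr10:107482908-107486134, minus strand) and Myf6 (chr10:107492853-107494737, minus strand) are neighbours, with 6718 bases between them. Myh3 (chr11:67078300-67102291) and Myh8 (chr11:67277124-67308634) lie on the plus strand in the cluster of skeletal myosin genes, 174832 bases apart. The others are Pax7 (chr4:139737062-139833528, minus), Myod1 (chr7:46376474-46379099, plus), Myog (chr1:134289989-134292548, plus), Mymk (chr2:27061636-27072179, minus), Chrng (chr1:87204657-87212694, plus) and Chrna1 (chr2:73563215-73580338, minus).

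Myogenic regulatory factors bind the E-box, CANNTG, so the 250 bases before the RefSeq start (GRCm38.p6) of a myogenic factor, a myosin and both receptor subunits are shown, with matches to CANNTG in capitals. The Myog stretch is chr1:134289754-134290003 (plus), that of Myh3 is chr11:67078050-67078299 (plus), that of Chrng is chr1:87205561-87205810 (plus) and that of Chrna1 is chr2:73580339-73580588 (minus).
Myog: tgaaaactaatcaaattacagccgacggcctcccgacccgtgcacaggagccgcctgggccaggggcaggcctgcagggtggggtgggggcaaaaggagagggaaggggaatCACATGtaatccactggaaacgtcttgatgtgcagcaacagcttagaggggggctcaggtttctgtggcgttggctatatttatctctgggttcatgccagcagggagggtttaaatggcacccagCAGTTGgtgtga
Myh3: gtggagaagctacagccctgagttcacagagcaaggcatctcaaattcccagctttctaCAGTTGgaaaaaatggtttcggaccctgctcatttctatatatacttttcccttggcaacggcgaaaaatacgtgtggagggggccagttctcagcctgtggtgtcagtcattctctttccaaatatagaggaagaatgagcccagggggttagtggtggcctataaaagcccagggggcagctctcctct
Chrng: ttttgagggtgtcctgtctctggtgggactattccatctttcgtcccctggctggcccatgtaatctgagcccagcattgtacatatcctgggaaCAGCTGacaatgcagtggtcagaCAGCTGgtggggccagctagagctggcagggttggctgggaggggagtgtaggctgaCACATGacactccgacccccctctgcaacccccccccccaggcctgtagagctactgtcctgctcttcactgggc
Chrna1: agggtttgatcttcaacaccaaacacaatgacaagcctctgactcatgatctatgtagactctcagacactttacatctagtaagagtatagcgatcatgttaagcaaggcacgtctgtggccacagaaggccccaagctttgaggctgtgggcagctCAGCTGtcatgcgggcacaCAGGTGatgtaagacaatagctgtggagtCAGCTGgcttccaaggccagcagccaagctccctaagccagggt
The RefSeq start is not the start of the gene as given above for 2 of these 4: the last 15 bases of the Myog stretch lie in an exon of that gene, and the whole Chrng stretch lies inside that gene, with 1 base in an exon. The Myog stretch holds CACATG from 138 to 133 bases before the RefSeq start and CAGTTG from 12 to 7, within those 15 exon bases. Chrng holds CAGCTG at 155 to 150 and at 132 to 127 bases before the RefSeq start, and Chrna1 at 92 to 87 and at 44 to 39. The table gave this stretch for 7 of the 10 genes, and 5 of those 7 held CANNTG, compared with 66.2% of 32851 promoters. CAGCTG, a form of CANNTG, was in 2 of the 7 and in 13.0% of all, and TATAAA on either strand in 2 of the 7 (Myh3 among them) and in 12.4% of all. CANNTG and CAGCTG read the same on both strands, and a match is a description of the letters, not a binding site.

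Across the wound days, 9 of the 10 genes were highest on Day10, and Myf5 was highest on Day7. Groups are said to overlap or not on CPM, while the values per library are given as counts. For 8 of the 10 (all but Pax7 and Myf5), each Day10 library was above every library of the 5 other wound days. The share over all genes tested was not computed for either count, so nothing is read from them about these genes. The skeletal muscle markers together were also highest among the wound days on Day10, at a mean log2 CPM of 9.33 ± 0.16 (SD). On Day3, Myh3, Mymk and Chrng had at most 14 counts in any library and Myh8 at most 63, and on Day5 all 4 genes were above their Day3 range in every library. The Day0 libraries of Myog, Myh3, Mymk, Chrng and Chrna1 split widely, with replicates 1 and 4 high and replicates 2 and 3 low.

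**Figure D1:**
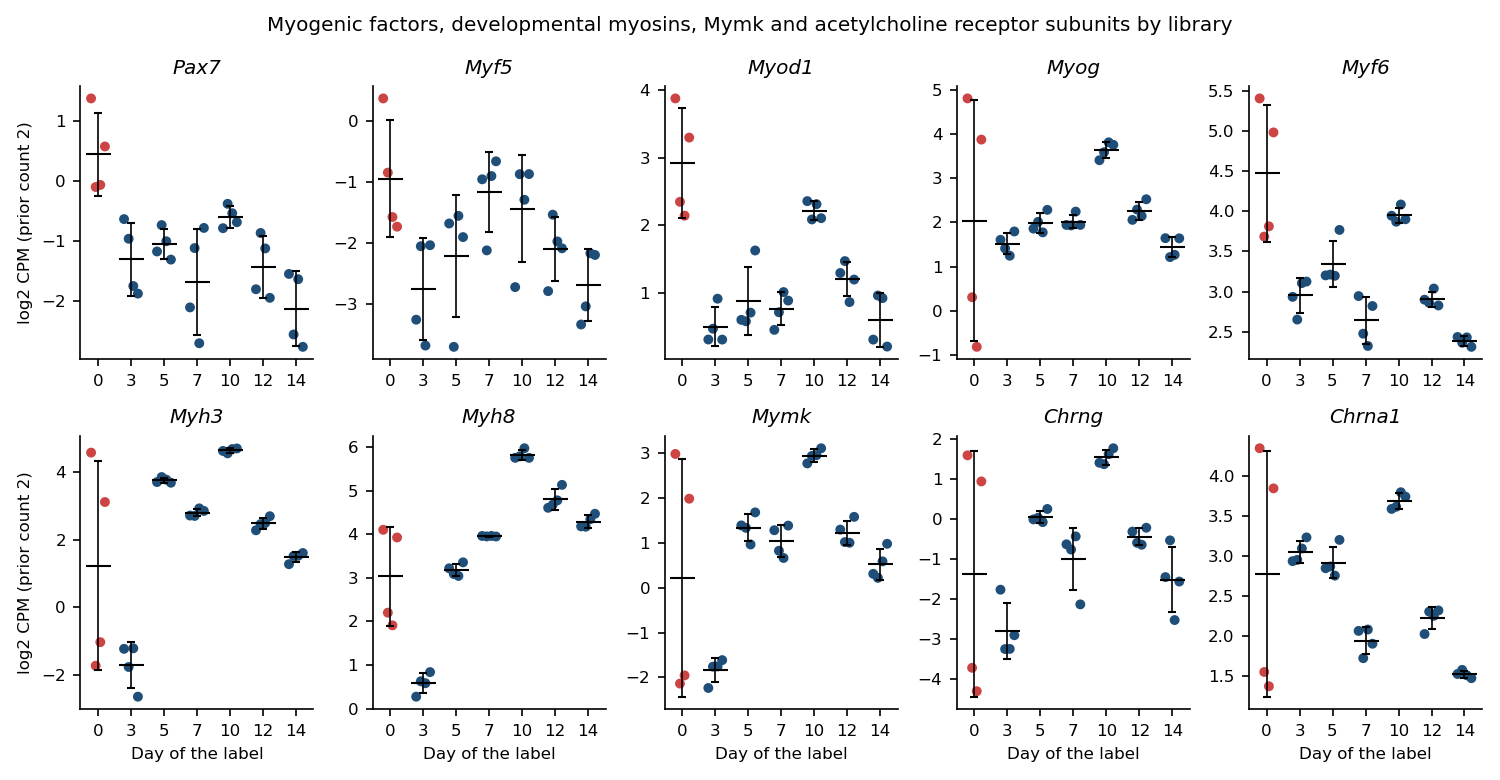
Each panel plots 1 gene as log2 CPM (prior count 2) against the day, with a point per library (Day0 in red, wound days in blue) and the mean ± SD of 4 libraries in black. The mean of Day10 is the highest of the wound days for 9 genes, with every Day10 point above all other wound points for 8 of them, and the Day0 points of Myog spread over 5.62 log2 units.

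Pax7, the factor of satellite cells, was counted 97, 35, 35 and 52 times in Day0 replicates 1 to 4, and 22, 17, 9 and 8 times on Day3. It had 21, 29, 25 and 23 counts on Day10 and 12, 5, 11 and 4 on Day14. Every Day0 library was above every wound library, and the Day10 libraries were above those of Day12 and Day14 but overlapped with Day3, Day5 and Day7. The fitted log2 fold change from Day0 was -1.92 on Day3 (SE 0.43), -1.23 on Day10 (SE 0.41) and -2.89 on Day14 (SE 0.46).

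Myf5, which acts with Myod1 in committing cells to myoblasts, was near the detection limit, with 47, 20, 11 and 9 counts on Day0 and 2, 7, 1 and 7 on Day3. Its Day7 libraries held 18, 7, 19 and 23 counts and its Day10 libraries 4, 20, 14 and 20. These days overlapped each other and Day0, and the log2 difference of Day7 from Day0 was -0.42 (SE 0.54), from -0.66 without Day0 replicate 4 to 0.29 without replicate 1.

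Myod1, the myoblast determination factor, had 553, 199, 168 and 351 counts on Day0. It had 44, 49, 67 and 43 on Day3, and 201, 169, 192 and 171 on Day10. All Day3 libraries were below all Day0 libraries, whereas the Day10 range (4.19 to 5.07 CPM) overlapped with the Day0 range (4.36 to 14.6 CPM). The log2 fold change from Day0 was -2.60 (SE 0.31) on Day3 and -0.87 (SE 0.28) on Day10, and Day10 was 1.73 (SE 0.31) above Day3.

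Myog, the differentiation factor, differed widely within Day0, by 5.62 log2 units compared with 6.29 for Myh3 and 5.89 for Chrng, with 1056 counts in replicate 1, 47 in replicate 2, 20 in replicate 3 and 525 in replicate 4. Its wound groups were tight: 111, 96, 85 and 124 counts on Day3, 137, 152, 128 and 178 on Day5, and 147, 147, 184 and 150 on Day7. It reached 419, 483, 547 and 542 counts on Day10, then 175, 214, 193 and 247 on Day12 and 127, 96, 96 and 128 on Day14. In CPM the Day10 libraries (10.6 to 14) were above all other wound libraries, below Day0 replicates 1 (27.9) and 4 (14.6) and above replicates 2 and 3, while Day5 and Day7 overlapped. Day10 was 2.14 log2 units (SE 0.58) above Day3, and 0.18 (SE 0.54) above Day0. The difference from Day0 was -0.19 without Day0 replicate 2, -0.22 without replicate 3 and 1.21 without replicate 1, and that of Day3 from Day0, -1.96 (SE 0.58), ran from -2.35 without Day0 replicate 3 to -0.88 without replicate 1.

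Myf6 (MRF4), the factor most abundant in adult fibres, had 1606, 507, 540 and 1136 counts on Day0, 281, 229, 313 and 314 on Day3, 609, 588, 662 and 600 on Day10 and 221, 215, 217 and 205 on Day14. Its Day10 libraries lay inside the Day0 range and above all other wound days. In FPKM, a level scaled to gene length and library size, which allows genes to be compared, Myf6 was the highest of the 10 genes on Day10 at 12.5 ± 0.647 (SD, n = 4), followed by Myh8 at 9.16 ± 0.536 and Myog at 8.55 ± 0.958, whose libraries overlapped. Mymk was at 5.19 ± 0.492, Myh3 at 4.15 ± 0.164, Chrna1 at 3.00 ± 0.169, Myod1 at 2.52 ± 0.236 and Chrng at 1.38 ± 0.179. Myf5 (0.133 ± 0.069) and Pax7 (0.106 ± 0.0142) were lowest and overlapped.

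Mymk (myomaker), which acts in myoblast fusion, had 296, 7, 8 and 140 counts on Day0 and 6, 9, 9 and 10 on Day3. It had 98, 94, 72 and 116 counts on Day5, 92, 67, 60 and 101 on Day7 and 268, 306, 300 and 344 on Day10. All Day5 libraries were above all Day3 libraries, and Day0 replicates 2 and 3 were at the Day3 level. Day10 was 5.02 log2 units (SE 0.71) above Day3, a 32.5-fold difference. Against Day0 it was 1.34 (SE 0.53) higher, from 0.95 without Day0 replicate 2 or 3 to 2.45 without replicate 1. Its partner Mymx (myomixer), which is not among the 10, had 4, 1, 3 and 1 counts on Day3 and 65, 55, 71 and 78 on Day10. It rose by 4.71 on the log2 scale between these days (SE 0.73, edgeR quasi-likelihood adjusted p = 3.15e-06), higher in 4 of 4 Day10 libraries than in any Day3 library.

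Myh3, the embryonic myosin heavy chain, had 898, 10, 17 and 309 counts on Day0 and 14, 9, 14 and 4 on Day3. It had 496, 548, 517 and 472 counts on Day5, 252, 252, 296 and 283 on Day7 and 974, 943, 998 and 1041 on Day10, before 204, 241, 246 and 278 on Day12 and 98, 119, 115 and 125 on Day14. The order of the wound days was therefore Day10, Day5, Day7, Day12, Day14 and Day3, with no overlap in CPM, although the counts of Day7 and Day12 overlapped. The log2 difference of Day10 from Day3 was 6.46 (SE 0.83), or 87.8-fold, the largest of the 10 genes in edgeR. With limma on log2(FPKM + 1), which understates changes of low genes, it was 2.30, below Myh8 (3.06) and Mymk (2.43). Against Day0, Day3 was lower by 4.87 (log2 fold change -4.87, SE 0.84) and Day10 higher by 1.59 (SE 0.57). Without Day0 replicate 1 these were -3.38 and 3.03. Without Day0 replicate 2 they were -5.27 and 1.19, and the Day10 difference without replicate 3 was 1.20. The Day10 difference was under the fold limit of 1.5 in both of these fits and with limma on log2(FPKM + 1) (1.45). With limma on log2(FPKM + 0.1), by contrast, Myh3 was called as higher on Day10. In CPM the Day10 libraries (23.4 to 25.8) overlapped with Day0 replicate 1 (23.7).

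Myh8, the perinatal myosin, followed a slower course. It had 648, 180, 143 and 544 counts on Day0 and 43, 55, 53 and 63 on Day3, then 354, 322, 311 and 376 on Day5, 601, 601, 609 and 608 on Day7 and 2133, 2224, 2450 and 2166 on Day10. It stayed at 1033, 1127, 1207 and 1516 on Day12 and 746, 759, 825 and 922 on Day14, above all Day0 libraries. No pair of the wound days overlapped, and Day10 was 5.27 log2 units (SE 0.34) above Day3, or 38.5-fold. Against Day0, Day10 was 2.48 (SE 0.28) higher, 2.20 to 2.87 over the fits that each left out a library, and Day14 was 0.96 (SE 0.27) higher, from 0.73 without Day0 replicate 3 to 1.42 without replicate 1.

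Myosin heavy chains are close paralogues that share sequence, and reads that fit several of them may have been split between them. As a share of the summed FPKM of 6 fibre myosins (Myh1, Myh2, Myh3, Myh4, Myh7 and Myh8), the developmental pair took 0.185% ± 0.136 on Day0 (SD, n = 4, from 0.0773% to 0.371%) and 0.134% ± 0.00485 on Day3. The share was 1.5% ± 0.158 on Day5, 1.58% ± 0.0976 on Day7, 2.46% ± 0.171 on Day10, 1.53% ± 0.117 on Day12 and 1.28% ± 0.171 on Day14. Every library from Day5 on was above every Day0 and Day3 library. Myh3 made up 0.822% to 0.972% of the sum on Day5 and 0.654% to 0.833% on Day10, while Myh8 made up 0.506% to 0.753% and then 1.56% to 1.82%. Adult Myh4 made up 75.2%, 84.2%, 84.5% and 75.8% in Day0 replicates 1 to 4 and 63.4% to 64.4% on Day10.

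**Figure D2:**
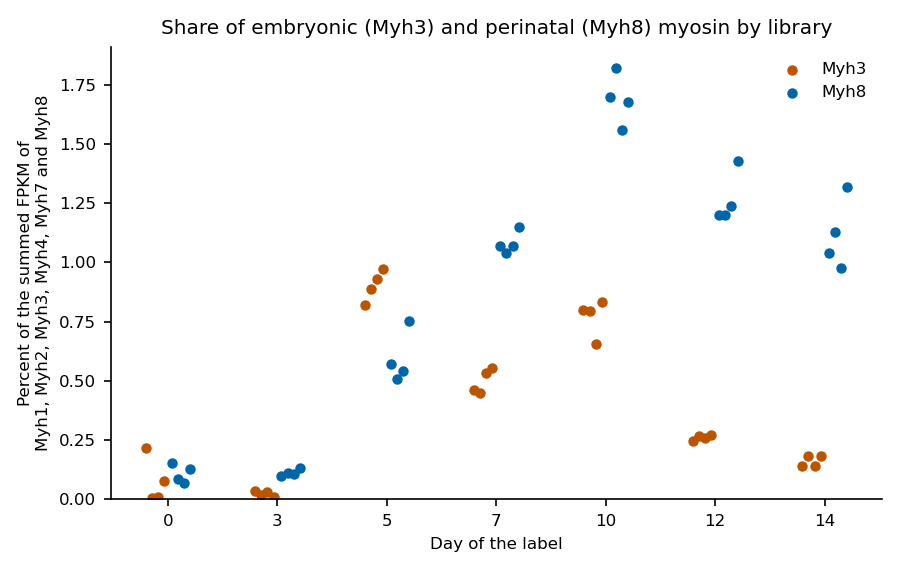
The share of the summed FPKM of 6 myosin heavy chain genes taken by Myh3 (brown) and by Myh8 (blue) is plotted in percent against the day, a point per library. Myh3 stands above Myh8 on Day5, and Myh8 above Myh3 on Day10, where it takes 1.56% to 1.82%.

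Chrng, the fetal gamma subunit, had 112, 1, 0 and 67 counts on Day0, where the library with 0 allows up to 3 counts, and 9, 2, 2 and 3 on Day3. It had 36, 37, 34 and 42 counts on Day5, 23, 21, 27 and 7 on Day7 and 103, 102, 118 and 135 on Day10. All Day5 libraries were above all Day3 libraries, and Day10 was above every other wound day. Day10 was 4.68 log2 units (SE 0.85) above Day3, and 1.25 (SE 0.64) above Day0, from 0.84 without Day0 replicate 2 or 3 to 2.22 without replicate 1.

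Chrna1, the alpha subunit, differed least between Day0 and Day3 of the 10 genes. It had 765, 114, 98 and 513 counts on Day0 and 281, 282, 310 and 338 on Day3, between the high and the low Day0 libraries. It had 160, 127, 164 and 146 counts on Day7, 474, 491, 540 and 535 on Day10 and 117, 124, 114 and 114 on Day14. The log2 difference of Day3 from Day0 was -0.27 (SE 0.36), from -0.59 without Day0 replicate 3 to 0.39 without replicate 1. Day10 was 0.63 (SE 0.36) above Day3.

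The other subunits of the receptor were fitted across the whole table with edgeR. Chrnd, the delta subunit, was at 0.0778 to 0.216 FPKM on Day3 and 1.10 to 1.72 FPKM on Day10, and it rose by 2.88 on the log2 scale between them (SE 0.50, edgeR adjusted p = 1.59e-05). Chrne, the adult epsilon subunit, fell by 3.29 on the log2 scale from Day0 to Day3 (SE 0.52, edgeR adjusted p = 3.48e-06) and was 2.55 higher on Day10 than on Day3 (SE 0.53, edgeR adjusted p = 0.000165). Chrne was at 1.06, 0.431, 0.781 and 1.25 FPKM on Day0, above Chrng in replicates 2, 3 and 4 (0.0117, 0 and 0.865 FPKM) and below it in replicate 1 (1.36 FPKM), whereas on Day10 Chrne was at 0.622, 0.382, 0.67 and 0.503 FPKM and below Chrng in each library. Chrnb1, the beta subunit, had 315 to 759 counts on Day0 and 226 to 247 on Day3, a log2 fold change of -1.06 (SE 0.20, edgeR adjusted p = 3.27e-05) that did not pass the fold limit.

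**Figure D3:**
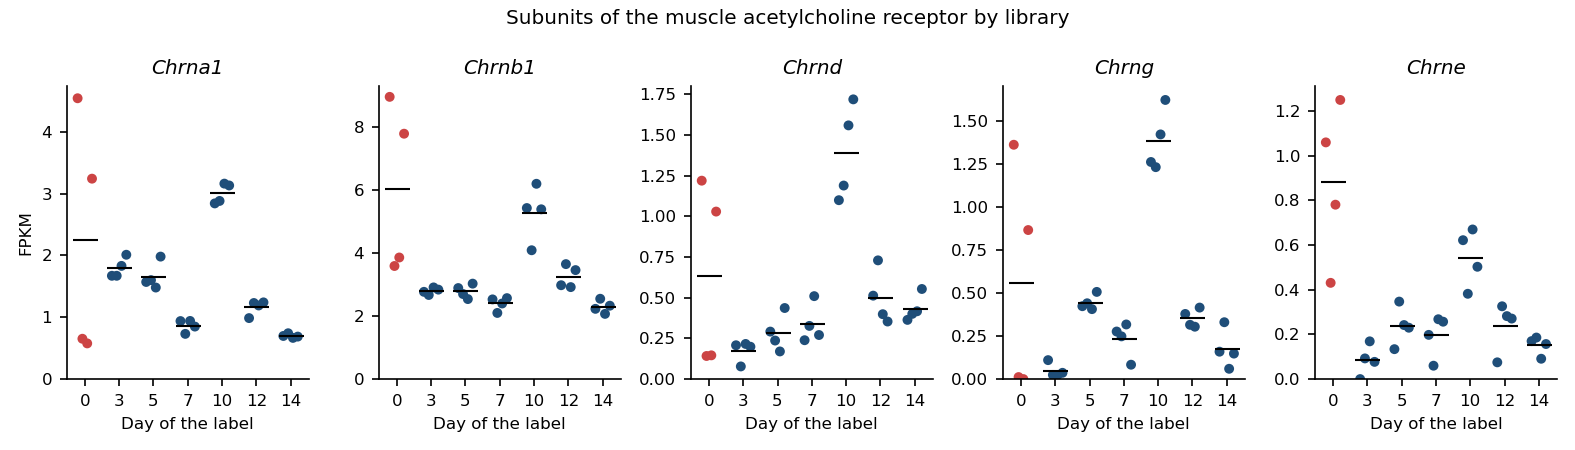
FPKM of the 5 muscle acetylcholine receptor subunits is plotted against the day, a point per library (Day0 in red) with a bar at each mean, each panel on its own axis from 0. Chrng reaches 1.23 to 1.62 FPKM on Day10 and Chrne 0.382 to 0.67 FPKM.

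Calls used a log2 fold change beyond 1.5 in size and a Benjamini-Hochberg adjusted p under 0.05 in edgeR, and the 6 comparisons with Day0 share the Day0 libraries. Of the 10 genes, 9 were past both limits as lower on Day3 (12.3% of all genes tested were lower and 6.44% higher) and 3 as lower on Day5 (8.22% lower, 5.52% higher). On Day7 there were 3 lower (4.64% lower, 4.52% higher), on Day10 there were 2 higher, Myh8 and Myh3, the latter short of the fold limit without Day0 replicate 2 or 3 and not called with DESeq2 or with edgeR on the 8 libraries of the comparison (4.22% higher, 5.02% lower), on Day12 there were 4 lower (3.38% lower, 3.69% higher) and on Day14 there were 8 lower (8.71% lower, 5.10% higher). In Day10 against Day3, a comparison added after the values were seen, 7 were higher (7.65% of all genes higher, 5.75% lower). In the fit on 8 libraries, 5 of the 9 Day3 calls and 4 of the 8 Day14 calls remained, and with DESeq2, 6 of the 8 Day14 calls. Without Day0 replicate 1, 6 of the 9 were still called on Day3, without Pax7 (-1.44), Myog (-0.88) and Myf6 (-1.28), and on Day5, 1 of the 3, without Pax7 (-1.29) and Myf5 (-0.79). On Day12, 1 of the 4 was then still called (Pax7, without Myf5, Myod1 and Myf6), and on Day14, 4 of the 8, without Myog (-0.92), Myh3 (-0.07), Chrng (-0.77) and Chrna1 (-1.13). Calls gained in that fit were Myh3 on Day5, Mymk and Chrng on Day10 and Myh8 on Day12, all as higher. Without Day0 replicate 2 or replicate 3, by contrast, 6 genes were called lower on Day7 and 5 on Day5. Since these contrasts entered the choice of the genes, nothing is read from the counts.

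Muscle RNA as a whole moved too. The mean log2 CPM of the 6 muscle markers was 10.66 ± 0.44 on Day0 (SD, n = 4), 8.36 ± 0.19 on Day3, 8.32 ± 0.09 on Day5, 8.30 ± 0.05 on Day7, 9.33 ± 0.16 on Day10, 8.81 ± 0.08 on Day12 and 8.37 ± 0.13 on Day14. Against this level (log2 CPM of the gene minus the marker mean), Day10 was above Day3 by 5.37 for Myh3, 4.26 for Myh8, 3.81 for Mymk, 3.36 for Chrng, 1.16 for Myog, 0.74 for Myod1, 0.35 for Myf5 and 0.03 for Myf6, while the differences were -0.26 for Pax7 and -0.34 for Chrna1. On this scale Myh3 was highest on Day5 (-4.57 ± 0.10) and next on Day10 (-4.69 ± 0.13), with overlapping libraries, and Chrna1 was highest on Day3, at -5.30 ± 0.15 compared with -7.88 ± 1.11 on Day0, overlapping with Day5 at -5.40 ± 0.16. The day means of Pax7, Myod1, Myog, Myf6 and Chrna1 spanned between 0.74 and 1.54 log2 units over the wound days, those of Myf5 1.65, and those of Chrng, Mymk, Myh8 and Myh3 3.36, 3.81, 4.26 and 5.50.

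**Figure D4:**
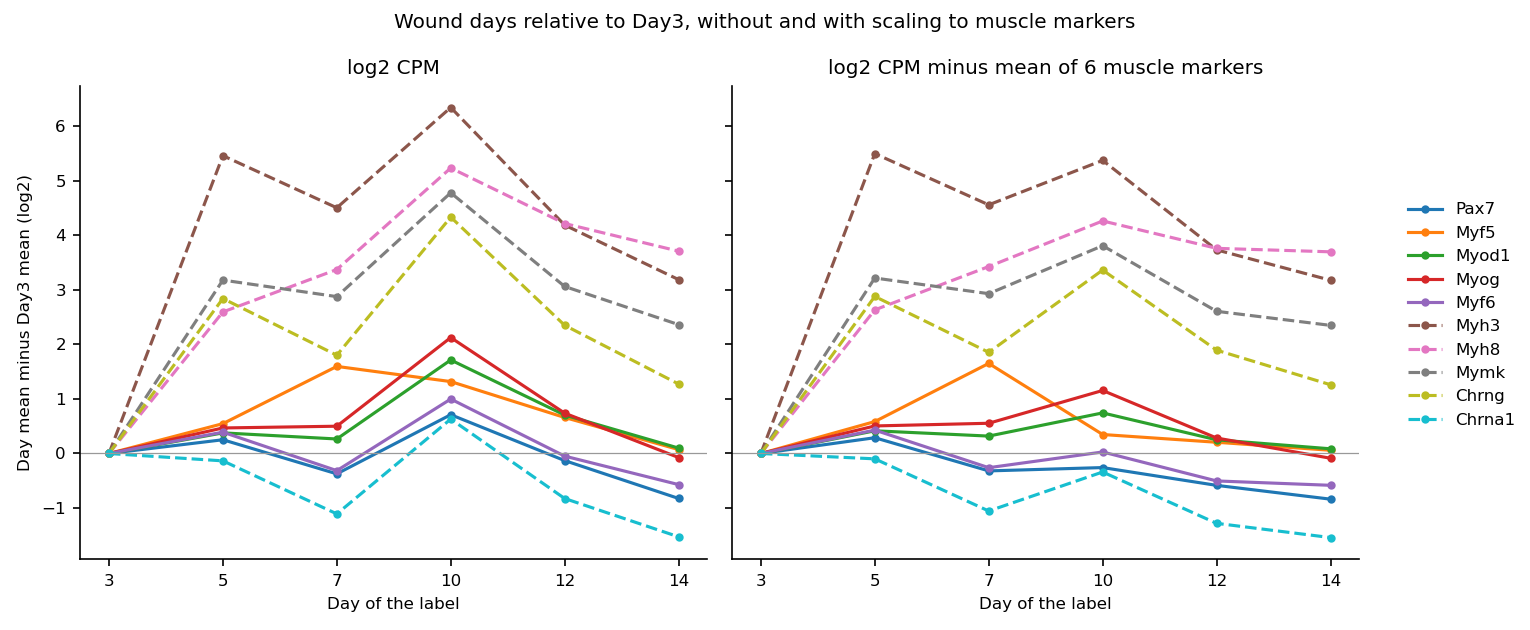
The mean of each wound day minus the Day3 mean is plotted in log2 units against the day, as log2 CPM on the left and after subtracting the mean of 6 muscle markers on the right, a line per gene. Myh3, Myh8, Mymk and Chrng lie above the other 6 genes from Day5 on in both panels.

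Markers of other cell types moved between the same days. From Day3 to Day10 the summed level of 6 fibroblast markers went from 19700 to 21400 CPM to 51500 to 58600 CPM, that of 6 macrophage markers from 4770 to 4960 CPM to 2130 to 2360 CPM, that of 6 Schwann cell markers from 153 to 159 CPM to 241 to 251 CPM, and that of 7 brown fat markers from 1180 to 1530 CPM to 732 to 783 CPM. The sum of 6 smooth muscle markers was 738 to 815 CPM on Day3, 1240 to 1440 CPM on Day10 and 877 to 928 CPM on Day12. Of its genes, Myh11, Cnn1, Synpo2 and Des, the last 2 also made by skeletal muscle, were highest among the wound days on Day10, whereas Acta2 was highest on Day7 and Smtn on Day14. The sum of 6 keratinocyte markers overlapped, at 4250 to 5390 CPM on Day3 and 5300 to 6080 CPM on Day10. Their part in the values of the 10 genes was not tested.

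Among the other genes of the pathway, 112 genes in 8 lists, 111 of them tested, the counts differed by day. On Day3, 52 fell and 2 rose against Day0, with a median log2 fold change of -1.38 compared with medians near 0 over all genes. On Day5, 40 fell and 3 rose (8.22% of all genes lower, 5.52% higher). On Day7, 42 fell and 1 rose (4.64% lower, 4.52% higher), and on Day12, 36 fell and 1 rose (3.38% lower, 3.69% higher). On Day10, 11 were lower and 6 higher than on Day0, and on Day14, 51 were lower and 1 higher. Over all genes tested, 12.3% were lower and 6.44% higher on Day3, 5.02% lower and 4.22% higher on Day10, and 8.71% lower and 5.10% higher on Day14, so the 6 of 111 higher on Day10 were near the share over all genes. The Day10 counts were 4 lower and 6 higher without Day0 replicate 4, 5 lower and 11 higher without replicate 1, and 16 lower and 5 higher without replicate 2 or replicate 3. Between Day3 and Day10, 22 rose and 0 fell, with a median of 0.97, compared with 7.65% of all genes higher and 5.75% lower.

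**Figure D5:**
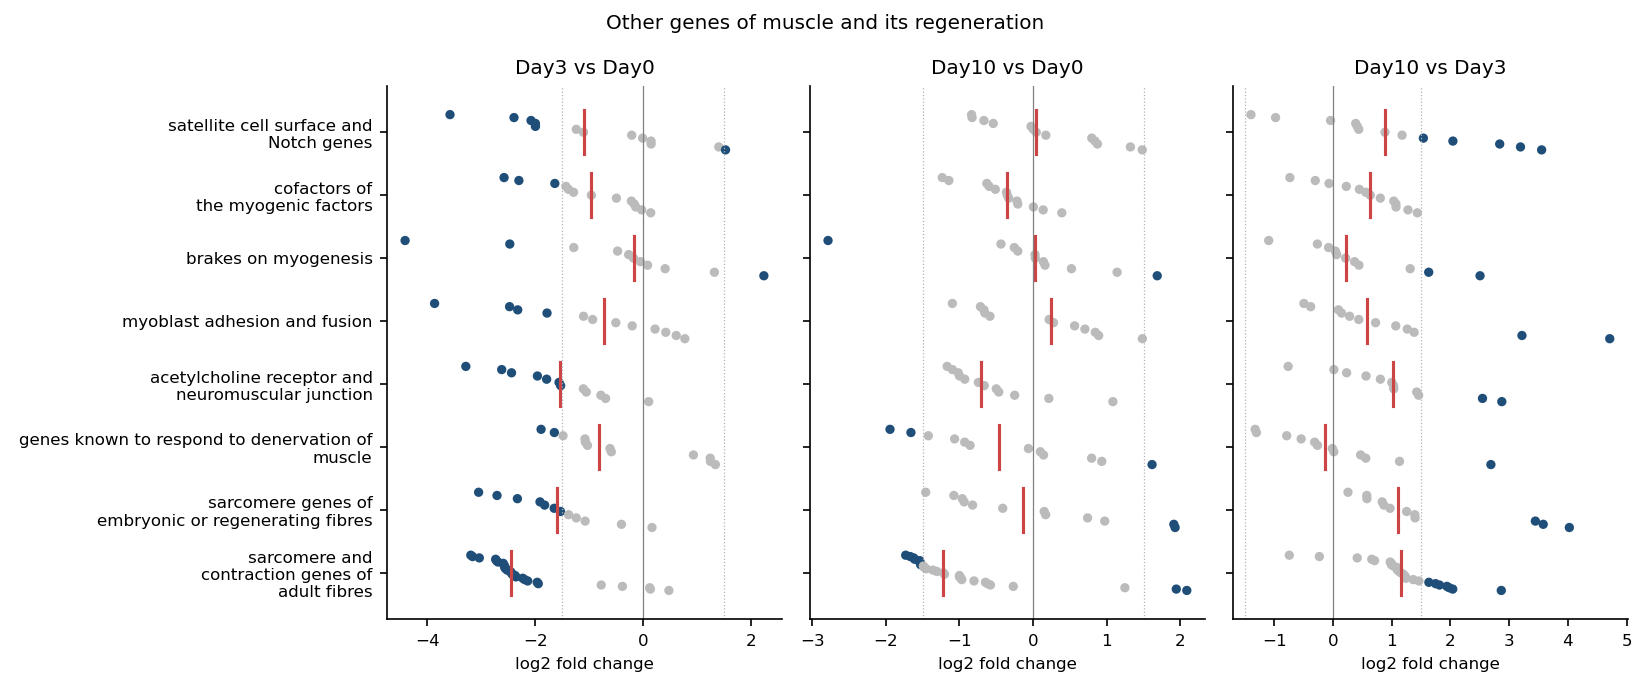
Each point is a gene of the pathway that is not among the 10, placed by its log2 fold change in 3 comparisons, with calls past both limits in blue, the others in grey and the median of each list as a red bar. Between Day3 and Day10 all 22 calls lie on the right.

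Of 27 sarcomere and contraction genes of adult fibres, 22 were lower on Day3 (median -2.45, with 12.3% of all genes lower), 8 lower and 2 higher on Day10 (median -1.22, with 5.02% of all genes lower and 4.22% higher) and 23 lower on Day14 (8.71% of all genes). Casq1, the calcium store protein of fast fibres, fell by 3.20 on Day3 (SE 0.14, edgeR adjusted p = 5.65e-17), and Pvalb, a calcium buffer of fast fibres, by 3.16 (SE 0.14, edgeR adjusted p = 3.9e-17). Tnni1 and Tnnc1, troponin genes of slow fibres, were the 2 that were higher on Day10 than on Day0, by 2.09 and 1.95 (edgeR adjusted p = 1.29e-07 and 5.13e-10), and were named after their values were seen. Myh1 and Myh2, which encode fast adult myosins, rose by 1.94 and 2.04 between Day3 and Day10 (edgeR adjusted p = 3.2e-07 and 4.14e-08).

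Of 12 sarcomere genes of embryonic or regenerating fibres, 7 were lower on Day3 (median -1.59) and 7 on Day14, and on Day10 there were 2 higher and 0 lower. Over all genes, 12.3% were lower on Day3, 8.71% lower on Day14, and 4.22% higher and 5.02% lower on Day10, so the 0 lower of 12 is near the share over all genes. The 2 that were higher were Myl4, the embryonic myosin light chain, at 1.93 (SE 0.36, edgeR adjusted p = 6.64e-05) but 1.22 with limma, and Tnnt2, a troponin of embryonic and cardiac muscle, at 1.91 (SE 0.34, edgeR adjusted p = 3.05e-05). Actc1, the actin of early fibres, had 1904, 1041, 1050 and 949 counts on Day0, 119, 168, 150 and 138 on Day3 and 2381, 2370, 2657 and 2776 on Day10. It fell by 3.05 from Day0 to Day3 (SE 0.17, edgeR adjusted p = 4.95e-15) and rose by 4.03 from Day3 to Day10 (SE 0.17, edgeR adjusted p = 2.81e-17).

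Of 13 satellite cell surface and Notch genes tested, 5 fell and 1 rose on Day3 (Vcam1 at 1.53, or 1.46 without Day0 replicate 2 and 1.47 without replicate 3), and 5 rose between Day3 and Day10, compared with 12.3% of all genes lower and 6.44% higher on Day3 and 7.65% higher between Day3 and Day10. Pax3, a relative of Pax7, fell by 3.58 on Day3 (SE 0.26, edgeR adjusted p = 1.79e-12) and was 3.55 higher on Day10 than on Day3 (edgeR adjusted p = 3.1e-12). Megf10, a receptor of satellite cells, fell by 2.40 on Day3 and rose by 3.19 between Day3 and Day10 (edgeR adjusted p = 1.37e-07 and 8.08e-10). Vcam1, an adhesion molecule also made by endothelial and immune cells, was 1.63 higher on Day7 (SE 0.08, edgeR adjusted p = 3.2e-15).

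Among 13 cofactors of the myogenic factors, 3 fell on Day3 and 0 rose, compared with 12.3% and 6.44% of all genes, led by Smyd1 at -2.58 (SE 0.13, edgeR adjusted p = 7.9e-16), and Mef2c was at -1.29, short of the fold limit. Of 11 brakes on myogenesis, 2 fell and 1 rose on Day3, near the shares over all genes (12.3% lower, 6.44% higher). Mstn (myostatin, which limits muscle mass) fell by 4.42 (SE 0.18, edgeR adjusted p = 6.1e-18) and stayed lower on Day10 (log2 fold change -2.79), while Snai1, a transcriptional repressor that many cell types use, rose by 2.24 (SE 0.12, edgeR adjusted p = 5.26e-15). Mdfi, an inhibitor of the myogenic factors, was 2.11 higher on Day14 (SE 0.14, edgeR adjusted p = 3.13e-13).

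Of 12 genes of myoblast adhesion and fusion, 4 fell on Day3 and 2 rose between Day3 and Day10, Mymx among them, compared with 12.3% of all genes that fell and 7.65% that rose. Of 12 genes of the receptor and the neuromuscular junction, 7 fell on Day3 (12.3% of all genes lower) and 7 on Day14 (8.71% of all genes lower). Musk, the kinase that organises the junction, was lower by 2.69 on Day14 (log2 fold change -2.69, SE 0.22, edgeR adjusted p = 4.02e-11). Between Day3 and Day10, 2 of the 12 rose, where 7.65% of all genes rose. Of 12 genes known to respond to denervation, 2 fell and 0 rose on Day3, near the 12.3% of all genes that fell. On Day10, Ncam1, a cell adhesion molecule of activated satellite cells and denervated fibres, was 1.62 higher than on Day0 (SE 0.17, edgeR adjusted p = 7.64e-09, named after its values were seen, under the fold limit at 1.49 without Day0 replicate 2, 1.43 without replicate 3 and 1.28 with limma), while Trim63 and Fbxo32, ubiquitin ligases of muscle atrophy, were 1.94 and 1.66 lower (log2 fold changes -1.94 and -1.66, edgeR adjusted p = 2.57e-07 and 7.92e-10). The Fbxo32 value was under the fold limit without Day0 replicate 1 (-1.48), without replicate 4 (-1.49) and with limma (-1.40).

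Correlations over the 28 libraries are given as a description, since libraries of a day share the wound stage. Myog, Myh3, Mymk and Chrng had Pearson r of log2 CPM from 0.72 to 0.96 among their 6 pairs, while all 45 pairs of the 10 genes ran from -0.01 to 0.96. After each wound day's mean was removed, the 6 pairs ran from -0.39 to 0.30 over 24 libraries and all 45 from -0.42 to 0.68. The 5 genes outside the 10 most like Myh3 were Myl4 (r = 0.92), Tnnt2 (r = 0.92), Mymx (r = 0.92), Depp1 (r = 0.91) and H2-M9 (r = 0.91). Those most like Myog were Sln (r = 0.89), Per1 (r = 0.86), Chrnd (r = 0.84), Lmna (r = 0.83) and Nes (r = 0.82). Those most like Chrna1 were Hspb7 (r = 0.92), Csrp3 (r = 0.90), Sel1l3 (r = 0.86), Ankrd1 (r = 0.85) and Xylt2 (r = 0.83), and those most like Pax7 were Got1, Klhl41, Alpk2, Trim72 and Rbm24 (r = 0.83 to 0.84). Over the 24 wound libraries alone, r was 0.62 to 0.69 for the Pax7 genes and 0.682 (Per1) to 0.925 (Sln) for those of Myog. It was then 0.90 to 0.93 for those of Myh3 and 0.79 to 0.96 for those of Chrna1.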

How the data were processed

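RNA of whole wound sites was extracted with TRIzol and sequenced after library preparation with a VAHTS Universal V6 kit. The authors supplied 2 gene tables over the 28 libraries, unnormalized read counts and FPKM, both as deposited. The submitters' processing notes name fastp, mm10 and R 3.2.0, and the aligner, counter and annotation are not given in the sources used here. Counts were fitted with edgeR 4.0.16 (TMM, filterByExpr, quasi-likelihood, 7 days in 1 fit) in R 4.3.3, with log2 CPM at a prior count of 2. Calls needed a log2 fold change beyond 1.5 and a Benjamini-Hochberg adjusted p under 0.05. FPKM served for shares and levels between genes, and for limma 3.58.1 on log2(FPKM + 1), with log2(FPKM + 0.1) as an alternative. DESeq2 1.42.0 was an alternative. The script was tested on simulated data. The 10 genes and all lists were chosen with earlier results of these data known. Genes were named by rule: all 10, fixed partners, up to 3 of the largest called changes per list and direction on Day3, Day7 or Day14 with a mean CPM of at least 1, and the 5 most correlated genes of 4 members. Tnni1, Tnnc1 and Ncam1 were outside this rule and were named after their values were seen. Day10 against Day3 was added after the data were seen. The floor of 3 counts covers counting error only. Each SD is between libraries. Each SE is the size of the log2 fold change over the square root of the edgeR F statistic, so it includes the spread between libraries.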

Additional observations from a re-analysis of the deposited data

Results flagged for a closer look

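In 5 of 70 groups of 4 libraries (10 genes on 7 days), the highest or lowest library lay far from the other 3, by a gap above 0.829 of the group's range, and chance flags about 3.5 of 70. Myf5 in Day5 replicate 2 was at -3.70 log2 CPM, with the others from -1.90 to -1.55. Myod1 in Day5 replicate 4 was at 1.62, with the others from 0.58 to 0.71, and Myf6 in the same library was at 3.77, with the others from 3.20 to 3.21. Myog in Day7 replicate 3 was at 2.25, with the others from 1.93 to 1.94. Myh8 in Day10 replicate 3 was at 5.97, with the others from 5.75 to 5.79.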

How the results depend on the processing

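The 10 genes' log2 fold changes moved by less than the spread between replicates in 1141 of their recomputed values and by more in 47. Against Day0 that spread included the Day0 SD, 3.08 log2 units for Myh3, so large moves could pass as small. Myh3 on Day14 went from -1.58 to -0.07 without Day0 replicate 1 and still counted among the 1141. No call of the 10 genes turned in sign, but their calls were not stable. Over fits that each left out a library, between 6 and 9 of them were called on Day3, 2 and 5 on Day5, 3 and 6 on Day7, 1 and 4 on Day10, 2 and 5 on Day12, 4 and 8 on Day14, and 6 and 7 for Day10 against Day3. With limma on log2(FPKM + 1) these were 1, 0, 1, 1, 0, 1 and 4, and on log2(FPKM + 0.1) 5, 2, 2, 4, 2, 2 and 5. With at least 10 counts in every library, which drops low genes, they were 4, 1, 2, 1, 2, 4 and 3. The main fit gave 9, 3, 3, 2, 4, 8 and 7. With edgeR on the 8 libraries of each comparison they were 5, 2, 3, 1, 3, 4 and 6, and with DESeq2 9, 3, 3, 1, 4, 6 and 7. Named genes of the pathway and Ucp1 kept their call status in 4795 values, lost the call in 151 and gained it in 50, and the cause was not tested. Direction was compared only for genes called in the main fit. Without a fold limit, calls over all genes were 12064 on Day3, 10779 on Day5, 9130 on Day7, 9129 on Day10, 8557 on Day12, 11352 on Day14 and 10697 for Day10 against Day3, compared with 3386, 2489, 1659, 1673, 1281, 2501 and 2427. Pathway genes called were then 94, 92, 89, 86, 83, 92 and 94, compared with 54, 43, 43, 17, 37, 52 and 22. With limma on log2(FPKM + 1), which understates changes of low genes, calls over all genes were 1065, 731, 473, 416, 364, 706 and 640, and with no filter 1090, 740, 485, 416, 367, 722 and 655. Pathway calls by limma were 32 on Day3, 9 on Day10, 24 on Day12, 31 on Day14 and 13 for Day10 against Day3, with and without the filter. In limma, 253 of the 364 Day12 calls were higher, compared with 669 of 1281, and 262 of the 640 Day10 against Day3 calls, compared with 1386 of 2427.

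Over fits that each left out a library, calls over all genes ran from 3390 to 3539 on Day3, 2490 to 2644 on Day5, 1644 to 1923 on Day7, 1674 to 1835 on Day10, 1275 to 1461 on Day12, 2457 to 2656 on Day14 and 2418 to 2491 for Day10 against Day3. Pathway calls ran from 51 to 54, 40 to 49, 41 to 46, 10 (without Day0 replicate 4) to 21 (without Day0 replicate 2), 33 to 42, 48 to 55 and 21 to 23. Without Day0 replicate 1, log2 fold changes from Day0 turned positive for Myh3 on Day7 (1.18) and Day12 (0.89), for Mymk on Day5 (0.86), Day7 (0.54), Day12 (0.74) and Day14 (0.09), for Chrng on Day5 (0.69) and Day12 (0.18), for Chrna1 on Day3 (0.39) and Day5 (0.22) for Myh8 on Day5 (0.23) and for Myf5 on Day7 (0.29) and Day10 (0.06). Same-numbered libraries did not deviate together (r from -0.07 to 0.05 over their pairs). With the replicate block, 3380, 2486, 1649, 1650, 1277, 2487 and 2425 genes were called, and 54, 44, 43, 18, 37, 50 and 22 of the pathway. With Day0 left out, chosen after seeing the data, Day10 against Day3 gave 2418 genes and 22 of the pathway. Myf5, Pax7 on wound days and Chrng on Day3 rest on a few counts per library.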

Other observations

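The brown fat gene Ucp1 had 6 to 49 counts in the Day0 libraries, 65266 to 73798 on Day5, 11737 to 12774 on Day10, 227 to 473 on Day12 and 18417 to 26142 on Day14. Among the wound days Ucp1 was highest on Day5 and lowest on Day12.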
